A study of Mus musculus with 24 samples.

Results

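A group of 10 genes of the nuclear factor kappa B (NF-kB) pathway was followed in cultured primary mouse osteoblasts (OBs), the bone-forming cells. The genes were *Il6*, *Ptgs2*, *Nfkbia*, *Tnfaip3*, *Nfkb1*, *Nfkb2*, *Relb*, *Icam1*, *Vcam1* and *Birc3*, chosen by symbol from the 55335 genes counted in every library, and all 10 symbols were found. The cells came from parietal bones of pups 4 to 5 days old, either wild type (WT) C57BL/6J or heterozygous for G610C, an allele (Col1a2tm1Mcbr, kept on C57BL/6J) in which cysteine replaces a helical glycine of the α2(I) procollagen chain (Het G610C, here Het). All cultures, WT and Het alike, received osteogenic differentiation treatment, and RNA was collected 8, 14 and 21 days after seeding. There were 4 libraries per genotype and day, numbered replicates 1 to 4, which makes 24 in all. Cells of several pups of 1 genotype were pooled before plating, and the study describes 2 experiments from different litters, but the labels do not tie a replicate number to separate animals. The p-values therefore measure the spread between these wells, which may be technical. A substitution of this kind cannot be seen in counts per gene, so the genotype labels were not checked by expression.

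NF-kB transcription factors are dimers of Rel family proteins that wait in the cytoplasm until a signal such as TNF, interleukin 1 or a Toll-like receptor ligand releases them. In the canonical route, IκB kinase marks IκBα (*Nfkbia*) for destruction and frees dimers that contain p50 (*Nfkb1*) and RelA. In the noncanonical route, the kinase NIK (*Map3k14*) drives processing of p100 (*Nfkb2*) to p52, which pairs with RelB (*Relb*). Several targets close the loop: IκBα recaptures the dimers, A20 (*Tnfaip3*) edits ubiquitin on signalling proteins, and cIAP2 (*Birc3*) is a ubiquitin ligase that restrains NIK and cell death. Other targets carry the inflammatory output, namely interleukin 6 (*Il6*), the prostaglandin synthase COX-2 (*Ptgs2*) and the leukocyte adhesion molecules ICAM1 (*Icam1*) and VCAM1 (*Vcam1*). In bone, this pathway is best known for osteoclast formation, and macrophages use it strongly.

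The gene starts were searched for the kB consensus, the site bound by Rel dimers, and the stretches with a match are shown because such sites are the feature that ties targets to this pathway. RefSeq promoter windows (GRCm38.p6, 250 bases before to 50 after a start) were at hand for 7 of the 10 genes. *Nfkb1*, *Relb* and *Vcam1* had none in the table. The consensus was found on either strand in 6 of their 10 windows, 3 of them of *Nfkb2*, beside 1480 of all 32851 windows (4.51%). Overlapping *Nfkb2* windows share the match in the last stretch below, so that site counts in more than 1 window. By gene, 4 of the 7 had at least 1 window with a match, beside 1388 of all 27025 genes in the table (5.14%). The genes were taken for their place in this pathway, so these shares are a description and not a test. The 30-base stretches below hold every match, 5′ to 3′ on the strand of the gene, with the matching bases in capitals.
Il6, chr5:30013060-30013089, plus strand: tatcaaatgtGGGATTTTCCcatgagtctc
Nfkbia, chr12:55492657-55492686, minus strand: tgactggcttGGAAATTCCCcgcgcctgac
Tnfaip3, chr10:19015403-19015432, minus strand: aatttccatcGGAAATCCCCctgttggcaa
Tnfaip3, chr10:19015516-19015545, minus strand: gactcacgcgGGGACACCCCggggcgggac
Nfkb2, chr19:46304688-46304717, plus strand: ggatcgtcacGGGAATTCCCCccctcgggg
Nfkb2, chr19:46304716-46304745, plus strand: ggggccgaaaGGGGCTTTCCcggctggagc
Nfkb2, chr19:46305449-46305478, plus strand: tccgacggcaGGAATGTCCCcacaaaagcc
Nfkb2, chr19:46305695-46305724, plus strand: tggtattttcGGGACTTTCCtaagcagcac
The capitals begin 44 bases before the start of *Il6*, 29 bases before that of *Nfkbia* and 12 and 125 bases before that of *Tnfaip3*. In the first *Nfkb2* stretch, overlapping matches make a run of capitals 1 base longer than the others. The windows of *Ptgs2*, *Icam1* and *Birc3* held no exact match. Sites that depart from the consensus and sites outside the windows were not searched for, so kB sites of these genes are not excluded. By the annotation (GENCODE M21), the stretches of *Il6* and *Nfkbia*, the *Tnfaip3* stretch 125 bases before the start and the *Nfkb2* stretch 236 bases before one of its starts lie outside exons, and the others overlap an annotated exon. A match is a description of the sequence, and binding was not measured.

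On GRCm38, *Nfkb2* lies at chr19:46304320-46312385 on the plus strand and *Relb* at chr7:19606217-19629438 on the minus strand. *Nfkb1* (chr3:135584655-135691547) and *Vcam1* (chr3:116109949-116129688) are both on the minus strand of chromosome 3, and *Icam1* (chr9:21015985-21028817, plus) and *Birc3* (chr9:7848699-7873186, minus) share chromosome 9. *Nfkbia* lies at chr12:55489410-55492647 and *Tnfaip3* at chr10:19000910-19015657, both on the minus strand. *Ptgs2* (chr1:150100031-150108227) and *Il6* (chr5:30013114-30019981) are on the plus strand. *Nfkb2* overlaps *Psd* and *AC114539.1* on the opposite strand.

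Levels were expressed as RQ, in which each gene's count is scaled by 4 housekeeping genes of its library (*Sdha*, *Mrfap1*, *Actb* and *Actg1*, combined as a geometric mean) and given per 1000 housekeeping counts. In bulk RNA, fewer cells of a type and less RNA per cell cannot be told apart. Library totals ranged from 17140202 to 25825762 counts in replicate 1 and from 28159342 to 59734231 in replicates 2 to 4. Of the 10 genes, 9 passed the filter on low counts and were tested. *Il6* was not tested, since it had 38 counts over all 24 libraries, with 0 in 8 of them and at most 7 in any 1.

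Per kilobase of annotated exon, *Nfkbia* had the highest mean RQ over all libraries at 25.1 ± 7.40 (SD, n = 24), followed by *Vcam1* at 19.3 ± 5.50. *Icam1* (15.7 ± 3.65) and *Nfkb2* (15.5 ± 2.23) came next, then *Nfkb1* at 10.2 ± 1.23 and *Ptgs2* at 8.05 ± 4.63. *Relb* (7.03 ± 1.6) and *Birc3* (6.77 ± 1.96) were followed by *Tnfaip3* at 1.99 ± 1.00. *Il6* was last at 0.0349 ± 0.0447. These means pool 6 groups, and at day 8 *Vcam1* ranked above *Nfkbia* in both genotypes, at 21.6 against 17.9 in WT and 24.7 against 20.2 in Het, with ranges that overlapped. In WT at day 8, each gene from *Vcam1* down to *Nfkb1* overlapped its neighbor in the order, whereas *Nfkb1*, *Relb*, *Birc3*, *Tnfaip3* and *Il6* were separated with no overlap of their ranges. At day 21, *Nfkbia* stood above every other member in both genotypes.

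**Figure D1:**
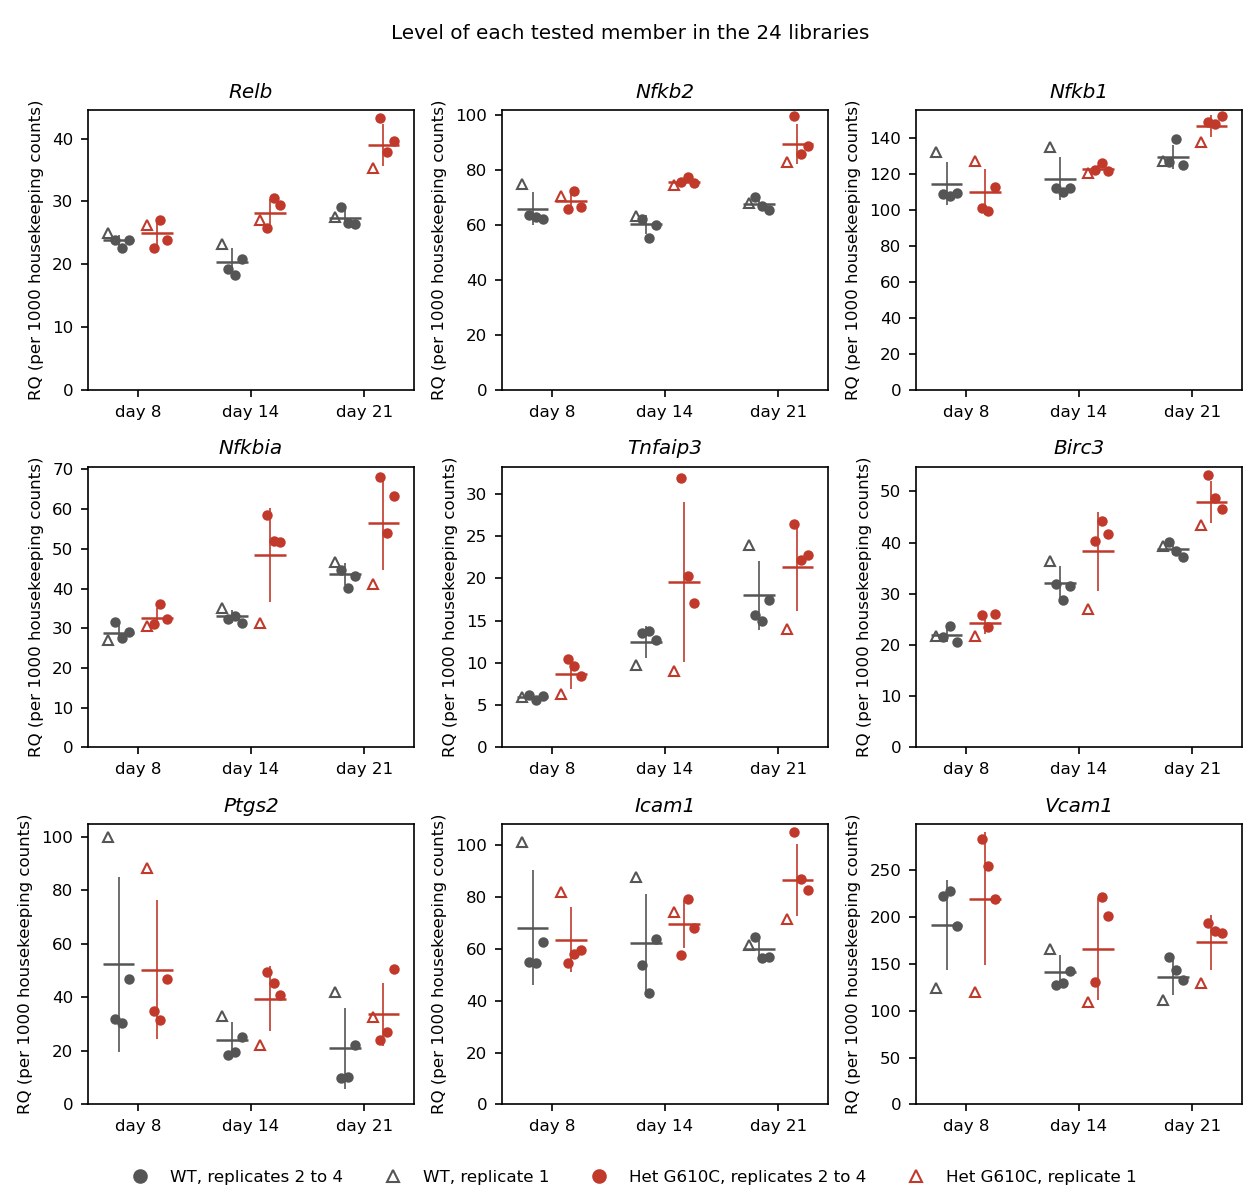
RQ per 1000 housekeeping counts of the 9 tested genes (y axes, linear from 0) at days 8, 14 and 21 (x axes) in WT (gray) and Het G610C (red). Triangles are replicate 1, filled circles replicates 2 to 4, horizontal lines means and vertical lines SD of 4 libraries. *Nfkb2* at days 14 and 21 is the gene in which every Het library, 74.5 to 99.4, lies above every WT library, 55.4 to 70.1.

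The RNA of the noncanonical dimer, *Relb* and *Nfkb2*, was higher in Het than in WT cultures at days 14 and 21. At day 14, *Relb* stood at 23.3, 19.3, 18.4 and 20.9 in WT replicates 1 to 4 and at 27.1, 25.8, 30.6 and 29.5 in Het. At day 21 it stood at 27.5, 29.1, 26.6 and 26.5 in WT and at 35.3, 43.3, 37.9 and 39.6 in Het. Every Het library exceeded every WT library of its own day, in replicate 1 as in the others, while the pooled days overlapped, since WT at day 21 reached 29.1 and Het at day 14 began at 25.8. The log2 fold change was 0.49 (SE 0.06), a 1.4-fold difference, with an adjusted p of 2.77e-05 by edgeR's quasi-likelihood test. Over all replicates, 2 of the 9 tested genes at day 14 and 4 at day 21 had no overlap within the day. The share over all genes was not taken for these days alone, so these counts have no background. At day 8, every Het library lay above every WT library in 1.24% of genes and below in 3.49%.

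*Nfkb2* showed the same order. At day 14, its RQ was 63.2, 62.2, 55.4 and 59.9 in WT against 74.5, 75.6, 77.3 and 75.0 in Het. The day 21 values were 67.8, 70.1, 66.9 and 65.4 in WT and 82.9, 99.4, 85.8 and 88.7 in Het. *Nfkb2* was the only member whose 8 Het libraries all lay above all 8 WT libraries, a separation found in 0.389% of the 20287 genes tested. The log2 fold change was 0.37 (SE 0.05), 1.29-fold, with an adjusted p of 4.81e-05. Both genes passed when either day was taken alone, with adjusted p of 0.00525 (*Relb*) and 0.0104 (*Nfkb2*) at day 14 and 0.00387 for each at day 21.

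At day 8 neither gene separated the genotypes over all replicates. *Relb* was 24.95, 23.8, 22.6 and 23.8 in WT and 26.3, 22.7, 27.0 and 23.9 in Het, and *Nfkb2* was 74.7, 63.7, 63.0 and 62.0 in WT and 70.5, 65.6, 72.1 and 66.3 in Het. Over all replicates the values overlapped, with log2 fold changes of 0.07 (SE 0.08) and 0.06 (SE 0.07). In replicates 2 to 4 alone, every Het value of *Nfkb2* lay above every WT value, as in 8.63% of genes. The difference between the later effect and the day 8 effect was 0.42 (SE 0.10) for *Relb* and 0.31 (SE 0.08) for *Nfkb2*, with unadjusted p of 0.000441 and 0.000946 and adjusted p of 0.157 and 0.234. None of the 9 genes passed that test of the difference, which 0.177% of all genes passed (1132 genes at an unadjusted p under 0.05). By DESeq2's Wald test, *Relb* (adjusted p 0.00889) and *Nfkb2* (0.0345) passed.

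The gene for the p50 precursor, *Nfkb1*, did not pass. Its day 21 values were 127, 127, 139 and 125 in WT against 138, 149, 148 and 152 in Het. At day 14, WT replicate 1 (135) lay above all Het libraries (121 to 126), and WT replicates 2 to 4 (110 to 112) lay below them. Over both days, the log2 fold change was 0.12 (SE 0.06, adjusted p 0.162). *Nfkb1* passed with TMM (0.18, adjusted p 0.00798) and with the total count (0.22, 0.00602) as the library scale.

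Among the genes of the feedback loop, *Nfkbia* and *Birc3* rose in Het cultures at days 14 and 21. At day 14, *Nfkbia* was 35.0, 32.3, 33.1 and 31.4 in WT against 31.3, 58.5, 51.8 and 51.7 in Het. The day 21 values were 46.7, 44.6, 40.1 and 43.3 in WT and 41.1, 68.1, 54.0 and 63.2 in Het. In replicates 2 to 4 all Het values exceeded all WT values, and in replicate 1 the Het library was the lower of the pair at both days. Over all replicates, the log2 fold change was 0.47 (SE 0.10), 1.38-fold, with an adjusted p of 0.00541.

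*Birc3* was likewise higher in Het in replicates 2 to 4. Its day 14 values were 36.5, 31.8, 28.7 and 31.6 in WT against 27.0, 40.4, 44.2 and 41.7 in Het, and its day 21 values were 39.4, 40.1, 38.4 and 37.2 against 43.5, 53.2, 48.8 and 46.6. Replicates 2 to 4 did not overlap between genotypes, while in replicate 1 the Het library was the lower at day 14, where it was the lowest of the 16 libraries, and the higher at day 21. The log2 fold change was 0.29 (SE 0.08), 1.22-fold, with an adjusted p of 0.0185.

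*Tnfaip3*, the third gene of the loop, was 9.77, 13.6, 13.8 and 12.7 at day 14 in WT, compared with 9.07, 31.9, 20.3 and 17.2 in Het. At day 21 it was 23.9, 15.7, 15.02 and 17.4 in WT and 14.1, 26.5, 22.2 and 22.8 in Het. Replicate 1 ran against the others, with the highest WT value of day 21 and the lowest Het value of each day. Its difference of 0.45 (SE 0.18) on the log2 scale did not pass, at an adjusted p of 0.0956. At day 8, *Tnfaip3* was 6.0, 6.25, 5.57 and 6.14 in WT and 6.33, 10.4, 9.68 and 8.4 in Het. All 4 Het libraries lay above all 4 WT libraries, as they did in 1.24% of genes, but the adjusted p was 0.498 (log2 fold change 0.55, SE 0.26).

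The inflammatory outputs did not pass. *Il6* had 21 counts over the 12 WT and 17 over the 12 Het libraries, and its highest RQ was 0.378. The level that 3 counts would give was 0.0969 in the deepest and 0.340 in the shallowest library by housekeeping counts, so a difference between genotypes was not detectable at this depth.

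*Ptgs2* had the largest fold and the widest spread of the 9 genes. At day 14 it was 32.9, 18.4, 19.5 and 25.4 in WT against 22.1, 49.6, 45.6 and 40.7 in Het. The day 21 values were 42.1, 9.96, 10.1 and 22.2 in WT and 32.9, 24.3, 27.0 and 50.6 in Het. Replicate 1 had the highest WT value at both days and Het values below it. Replicates 2 to 4 were higher in Het without overlap at each day, as for 7 of the 9 genes at day 14 and 9 at day 21. The share over all genes was not taken for these days alone, so these counts have no background. At day 8, 8.63% of genes were higher in Het without overlap in replicates 2 to 4, and 29.1% were lower. The log2 fold change of *Ptgs2* over both later days was 0.72 (SE 0.32), with an adjusted p of 0.133. With the replicate number as a block it was 0.88 with an adjusted p of 0.0128.

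*Icam1* was 87.7, 53.8, 43.1 and 63.9 at day 14 in WT, compared with 74.1, 57.5, 79.1 and 67.8 in Het. At day 21 it was 61.4, 64.5, 56.4 and 56.6 in WT and 71.3, 105, 86.9 and 82.8 in Het. Its day 21 libraries did not overlap, as for 4 of the 9 genes, and the share over all genes was not taken for that day. Its log2 fold change over both days was 0.35 (SE 0.14), with an adjusted p of 0.0969, and 0.38 with 0.0310 under the replicate block. It passed also with TMM, with an adjusted p of 0.0220. *Vcam1* at day 14 was 166, 128, 130 and 143 in WT against 110, 130, 222 and 202 in Het. At day 21, it was 112, 157, 143 and 132 in WT against 130, 193, 186 and 183 in Het. It overlapped at day 14 and in replicate 1 at day 21, and its log2 fold change was 0.29 (SE 0.17), with an adjusted p of 0.267. *Icam1* and *Vcam1* each overlap an antisense gene, *Gm47079* and *Gm43109*, and the strand rule of the counting is not given in the sources used here, so reads of the pairs cannot be told apart.

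Over the list, 4 of the 9 tested genes were called higher in Het at days 14 and 21 and none was called lower, where 7.22% of the 20287 genes tested were higher and 8.05% lower. The median log2 fold change of the 9 was 0.37 and all 9 values were above 0, beside a median of −0.05 over all genes. With TMM as the library scale, 2473 genes were higher and 1514 lower, compared with 1465 and 1633 on the housekeeping scale, and the same 4 members passed with *Nfkb1* and *Icam1* added. With the replicate number as a block, 6 members passed, against 10.2% of genes higher. By a rule of a mean RQ ratio over 1.2 with a two-sided exact permutation p under 0.05 on these libraries, *Ptgs2*, *Nfkbia*, *Nfkb2*, *Relb*, *Icam1* and *Birc3* were higher, against 5.86% of genes.

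**Figure D2:**
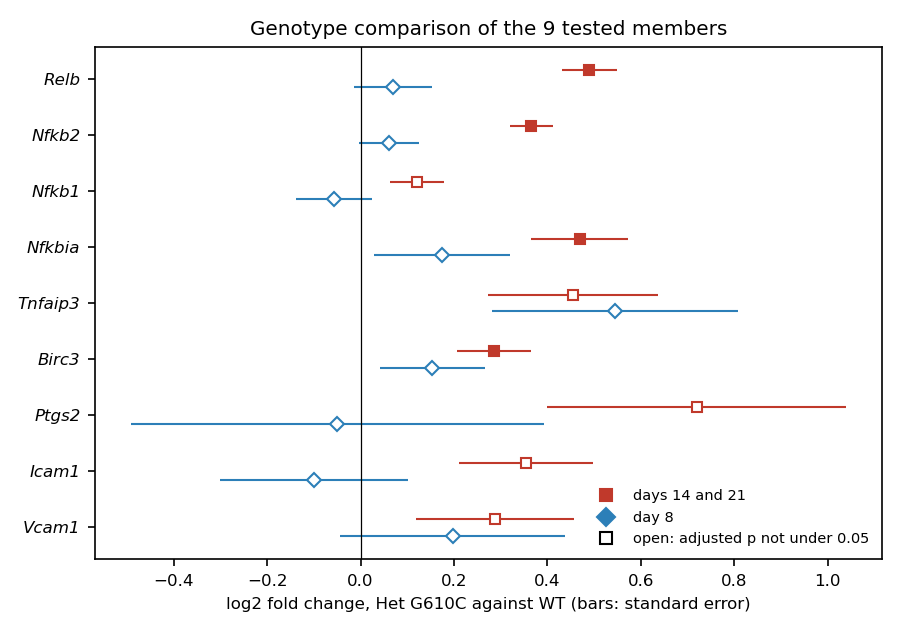
Log2 fold change of Het G610C against WT (x axis) for the 9 tested genes (y axis) at days 14 and 21 (squares) and at day 8 (diamonds), with bars of 1 SE. Filled symbols have an adjusted p under 0.05: *Relb*, *Nfkb2*, *Nfkbia* and *Birc3* at the later days, and none at day 8.

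At day 8, none of the 9 genes passed, where 0.641% of all genes did, and none had an unadjusted p under 0.05, which 2053 genes had. The log2 fold changes ran from −0.10 (*Icam1*) to 0.55 (*Tnfaip3*) with a median of 0.07. By the rule on ratios with the exact permutation test, *Tnfaip3* was higher (ratio 1.45, two-sided p 0.0286, the smallest that 4 against 4 libraries allow), as were 0.991% of genes.

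The genotype difference was not alike in replicate 1 and in replicates 2 to 4. At days 14 and 21, the Het mean RQ exceeded the WT mean for all 9 genes in replicates 2 to 4, with ratios from 1.13 (*Nfkb1*) to 2.25 (*Ptgs2*), with a median of 1.42. In replicate 1 the ratio was above 1 for 2 genes, *Relb* at 1.23 and *Nfkb2* at 1.2, and the other 7 lay between 0.686 (*Tnfaip3*) and 0.985 (*Nfkb1*). The days of replicate 1 differed. At day 14 its ratio was above 1 for the same 2 genes (median 0.893), and at day 21 for 6, with *Birc3* (1.10), *Icam1* and *Vcam1* (1.16 each) and *Nfkb1* (1.08) added (median 1.10). Groups of replicates 2 to 4 did not overlap for *Nfkbia*, *Nfkb2* and *Birc3*, as in 3.99% of genes.

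**Figure D3:**
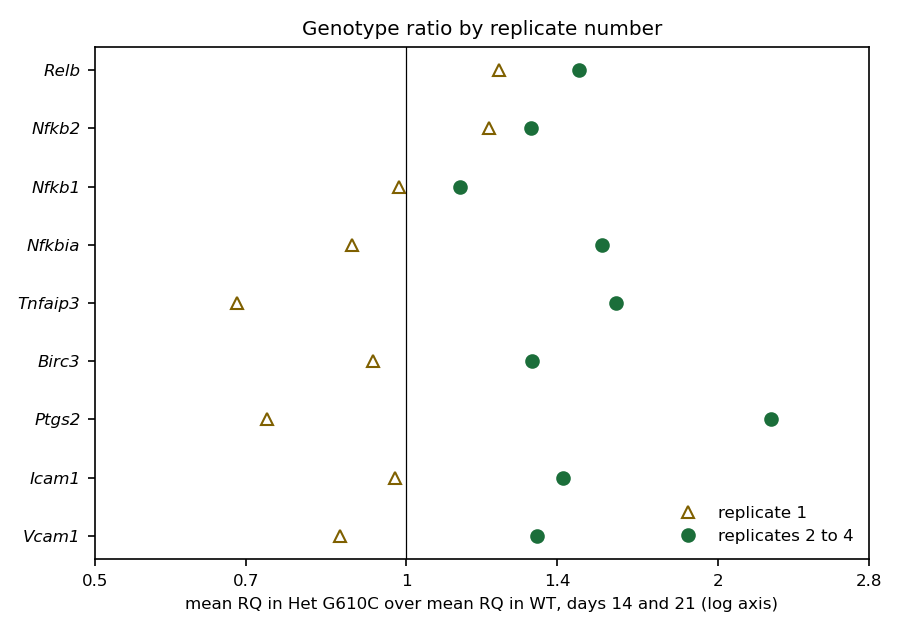
Ratio of mean RQ in Het G610C to mean RQ in WT at days 14 and 21 (x axis, log scale) for the 9 tested genes (y axis), in replicate 1 (triangles, 2 libraries per genotype) and in replicates 2 to 4 (circles, 6 per genotype). All 9 circles lie right of 1, and the triangles of 7 genes lie left of it with the days pooled. For day 21 alone, 6 of the 9 replicate 1 ratios were above 1.

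The difference itself was tested as an interaction over all days. The Het effect was lower in replicate 1 for *Tnfaip3*, by 0.98 on the log2 scale (SE 0.26, adjusted p 0.0237), for *Nfkbia*, by 0.54 (SE 0.14, adjusted p 0.0188), and for *Birc3*, by 0.43 (SE 0.11, adjusted p 0.0236). These 3 of 9 compare with 3.9% of all genes lower. The other 6 values were also below 0, from −1.10 for *Ptgs2* (adjusted p 0.0988) to −0.13 for *Nfkb1*, and that of *Relb* was −0.18 (SE 0.11, adjusted p 0.403). Without the single library Het day 14 replicate 1, none of the 9 genes passed, with values of −0.78, −0.41 and −0.28 and adjusted p of 0.111, 0.0952 and 0.114 for *Tnfaip3*, *Nfkbia* and *Birc3*. Without the 6 libraries of replicate 3 none passed either, at −0.99, −0.53 and −0.44 (adjusted p 0.0950, 0.0754 and 0.0538). In the same test, all 12 macrophage markers described below were lower, with a median of −1.58, and all 5 chondrocyte markers were higher, with a median of 1.97. The part of these cells in the result was not tested.

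Without replicate 1, all 9 genes passed as higher in Het at days 14 and 21, with log2 fold changes from 0.17 (*Nfkb1*, adjusted p 0.00146) to 1.18 (*Ptgs2*, adjusted p 0.000277), where 18.3% of the 19686 genes then tested were higher. Without replicate 2, 3 or 4, *Relb* and *Nfkb2* were the 2 genes that passed each time. The share over all genes is not given for these fits. Over all fits without 1 library or 1 replicate number, between 88 and 8228 genes were called in either direction. At day 8 without replicate 1, *Tnfaip3* passed, with 4.13% of genes higher, and in the difference between later days and day 8, *Relb*, *Nfkb2* and *Nfkbia* passed, with 3.92% of genes higher. The study describes 1 well per genotype and day in its first experiment and 2 in its second, whereas each group here has 4 libraries. The experiments also differed in plating density, and only cells of the second were first expanded at low oxygen. The labels do not say which replicate came from which experiment, so what sets replicate 1 apart cannot be told from them.

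In their level, too, the replicates differed. *Vcam1* was lower in replicate 1 than in replicates 2 to 4 by 0.50 on the log2 scale (SE 0.13, adjusted p 0.00336). At day 8 its RQ was 124 and 121 in replicate 1, WT and Het, against 190 to 283 in the other 6 libraries, whereas in WT at day 14 replicate 1 was the highest, at 166 against 128 to 143. *Ptgs2* was higher in replicate 1, by 0.78 (SE 0.24, adjusted p 0.0129), with 100 and 88.4 at day 8 against 30.5 to 46.9, and *Icam1* by 0.34 (SE 0.11, adjusted p 0.0185). In Het at day 14, however, *Ptgs2* in replicate 1 was the lowest, at 22.1 against 40.7 to 49.6, and in Het at day 21 it lay within the others' range. All 5 chondrocyte markers were also higher in replicate 1 (median 1.99; *Col2a1* 2.04, adjusted p 8.04e-06), as were 2 of 3 tested adipocyte markers (median 1.51), and their part in these differences was not tested. Of all genes, 33% were higher in replicate 1 and 6.84% lower, with a median difference of 0.11. With TMM the counts were 3221 and 3084, *Icam1* no longer passed (0.21, adjusted p 0.148), and *Nfkbia*, *Tnfaip3* and *Birc3* passed as lower.

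Over time in culture, the members did not move together. From day 8 to days 14 and 21, *Tnfaip3* rose 2.42-fold (log2 1.28, SE 0.17, adjusted p 1.16e-06), *Birc3* 1.69-fold (0.76, SE 0.07, adjusted p 6.70e-09) and *Nfkbia* 1.46-fold (0.54, SE 0.09, adjusted p 2.57e-05). *Birc3* was between 20.6 and 26.0 in the 8 day 8 libraries and between 27.0 and 53.2 in the 16 later ones, with no overlap, as in 11.1% of genes. *Tnfaip3* and *Nfkbia* overlapped between the days, since *Tnfaip3* was 9.07 in Het day 14 replicate 1 and reached 10.4 in Het at day 8.

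*Ptgs2* fell by 0.84 on the log2 scale (SE 0.27, adjusted p 0.00983) and *Vcam1* by 0.42 (SE 0.15, adjusted p 0.0171) over the same interval. In WT, *Ptgs2* fell by 1.23 (SE 0.38, adjusted p 0.0110), and in Het its value was −0.46 (SE 0.38, adjusted p 0.356). The difference between these changes equals that between the later and the day 8 genotype effects, 0.77 (SE 0.55), and was not past the threshold. *Vcam1* fell in neither genotype alone (−0.46 in WT and −0.37 in Het, adjusted p 0.0710 and 0.148).

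*Relb* (0.20), *Nfkb1* (0.20) and *Nfkb2* (0.11) also passed as higher at the later days, which makes 6 higher and 2 lower, against 40.9% and 17.6% of all genes. The median over all genes was 0.15 on this scale, so the 3 subunits lay close to it, and they did not pass with TMM, where the median was 0.01 and 6110 genes were higher and 6061 lower, compared with 8304 and 3573. By the total count, with a median of −0.15, *Nfkb2* (−0.19, adjusted p 0.000851) was lower, and *Relb* and *Nfkb1* were below 0 and did not pass. In WT alone, *Relb* (−0.01) and *Nfkb2* (−0.05) did not pass, and in Het both passed as higher, at 0.41 (adjusted p 7.54e-05) and 0.26 (adjusted p 0.000698). The difference between the genotypes in this change is the one given above, which did not pass (adjusted p 0.157 and 0.234). *Icam1* did not pass (0.07, SE 0.12), and its sign turned with the library scale, to −0.06 with TMM.

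From day 14 to day 21, *Relb* rose 1.36-fold (0.45, SE 0.06, adjusted p 3.44e-05), and it rose in each genotype alone, by 0.43 in WT and 0.47 in Het. *Nfkbia* (0.32, adjusted p 0.0351), *Birc3* (0.30, 0.0107), *Nfkb2* (0.20, 0.00336) and *Nfkb1* (0.20, 0.0181) rose as well. These 5 of 9 compare with 12.2% of genes higher and 5.95% lower, and none of the 9 was lower. With TMM, where 2253 genes were higher and 2158 lower compared with 2479 and 1207, *Nfkbia* did not pass (0.28, adjusted p 0.0963). Leaving out replicate 2, 3 or 4 left between 1 and 2 of these calls. The share over all genes is not given for these fits. Over all fits without 1 library or 1 replicate number, between 1328 and 6137 genes were called in either direction. None of the 9 genes passed in the test of whether the later-day change differed between replicate 1 and replicates 2 to 4, a test that 4.77% of genes passed (4296 at an unadjusted p under 0.05). Their values ran from −1.04 (*Ptgs2*, unadjusted p 0.0180) to 0.60 (*Vcam1*, unadjusted p 0.00625), and by DESeq2's Wald test *Vcam1* passed (adjusted p 0.0354).

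Other genes of the pathway were followed as lists, whose counts at days 14 and 21 stand beside 7.22% of all genes higher and 8.05% lower. Of 7 further Rel and IκB genes, 3 were higher in Het at days 14 and 21 and none lower, namely *Nfkbie* (IκBε, log2 fold change 0.80, adjusted p 0.00177), *Bcl3* (0.67, 0.00444), an IκB protein that binds p50 and p52 dimers, and *Nfkbid* (0.62, 0.00790). *Rela* (0.07) and *Rel* (0.03), the remaining Rel subunits, did not pass. Of the 17 tested of 20 ligands and receptors, 6 were higher and none lower, with *Tnf* (1.27, adjusted p 0.00574), the interleukin 1 receptor antagonist *Il1rn* (1.18, 0.00730) and the Toll-like receptor *Tlr2* (1.06, 0.000477) the largest changes by the naming rule. The receptor genes with most counts, *Tnfrsf1a* (0.04) and *Ltbr* (0.00), did not pass.

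Adaptors and kinases were near the center of all genes. Of 22, *Map3k14*, which encodes NIK, was higher (0.27, adjusted p 0.0384) and *Birc2*, which encodes cIAP1, was lower (−0.30, adjusted p 0.0139), and the list's median was −0.01. Of 12 feedback inhibitors beside the members, *Tnip3* (1.30, adjusted p 0.00954), a partner of A20, and *Irak3* (0.31, 0.00542), an inhibitor of Toll-like receptor signalling, were higher. Of the 23 tested of 26 other targets, 9 were higher and 1 lower, with *Saa3* (1.6, adjusted p 0.00550), an acute phase gene, and the complement gene *C3* (0.80, 0.0450) higher and the gelatinase *Mmp9* (−1.27, 0.0112), which osteoclasts make in quantity, lower.

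Around *Ptgs2*, 2 of 12 genes of prostaglandin E2 synthesis and reception were higher and 1 was lower (over all genes, 7.22% and 8.05%), namely the prostaglandin-degrading enzyme *Hpgd* (−0.91, adjusted p 0.0367). The higher were the synthase *Ptges2* (0.21, 0.0100) and the receptor *Ptger2* (1.10, 0.0174), which was named after its values were seen. Around *Il6*, the receptor *Il6ra* was higher (0.72, adjusted p 0.0162) and *Lifr* lower (−0.47, 0.0381) of 11 genes. Of the 8 integrin genes whose products bind ICAM1 or VCAM1, 4 were higher and none lower, *Itga9* (0.29, adjusted p 0.00327) and, with larger values, the leukocyte genes *Itgal* (1.48, adjusted p 0.000542), *Itgam* (1.07, 0.00673) and *Itgb2* (1.04, 0.00674). At day 8, no gene of these 8 lists passed.

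From day 8 to the later days, most lists had more genes higher than lower on the housekeeping scale, as had all genes together, with 40.9% higher and 17.6% lower. Integrins rose in 6 of 8 (median 2.40, *Itgax* 4.42, adjusted p 7.88e-10) and ligands and receptors in 10 of 17, with 3 lower (*Tnf* 2.68, *Tnfrsf11a*, which encodes RANK, 2.38). Feedback inhibitors rose in 8 of 12 (*Tnip3* 2.96), Rel and IκB genes in 5 of 7 (*Nfkbie* 0.80), and other targets in 12 of 23, with 4 lower (*Saa3* 4.63, *C3* 3.81). Adaptors and kinases rose in 12 of 22 with 1 lower, led by *Traf1* (0.64), but with TMM 7 were higher and 5 lower, and by the total count 4 and 14. Genes around prostaglandin E2 split 5 higher and 3 lower (*Hpgd* 3.34, *Ptgis* 2.83), and the IL-6 family split 4 and 4 (*Lifr* 2.57, *Osmr* −0.84).

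From day 14 to day 21, 9 of 17 ligands and receptors, 6 of 12 feedback inhibitors, 6 of 8 integrins, 5 of 12 prostaglandin genes and 7 of 23 other targets rose, and none fell in these lists except, with TMM, 1 prostaglandin gene. Over all genes, 12.2% rose and 5.95% fell. *Tnfsf11*, which encodes the osteoclast factor RANKL, rose by 1.59 on the log2 scale (adjusted p 0.00272) and *Itgax* by 2.01 (adjusted p 0.000165).

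Macrophage markers moved with several of these results. All 12 markers (*Cd68*, *Adgre1*, *Csf1r*, *Lyz2*, *Ptprc*, *Tyrobp*, *Fcer1g*, *Cd14*, *Mrc1*, *C1qa*, *C1qb* and *C1qc*) were detected, and 11 were higher in Het at days 14 and 21 (median 1.02). *Mrc1* was 0.59 with an adjusted p of 0.0526. At day 8, 6 of the 12 were higher (median 1.57). At day 8, the 4 WT sums of RQ lay between 252 and 498 and the 4 Het sums between 421 and 1113. At day 14 these ranges were 1569 to 5043 and 3499 to 8004, and at day 21 they were 6720 to 7773 and 8905 to 19680, without overlap. In replicate 1 the order was turned at day 8, with 498 in WT and 421 in Het, and at day 14, with 5043 and 3499. At day 21 it was not, with 6970 in WT and 8905 in Het. OB markers were lower in 2 of 8 at days 14 and 21 (median −0.42; *Bglap* and *Runx2*), beside 8.05% of all genes. At day 8, 2 of the 8 were also lower (median −0.875), where 0.641% of all genes were called in either direction.

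**Figure D4:**
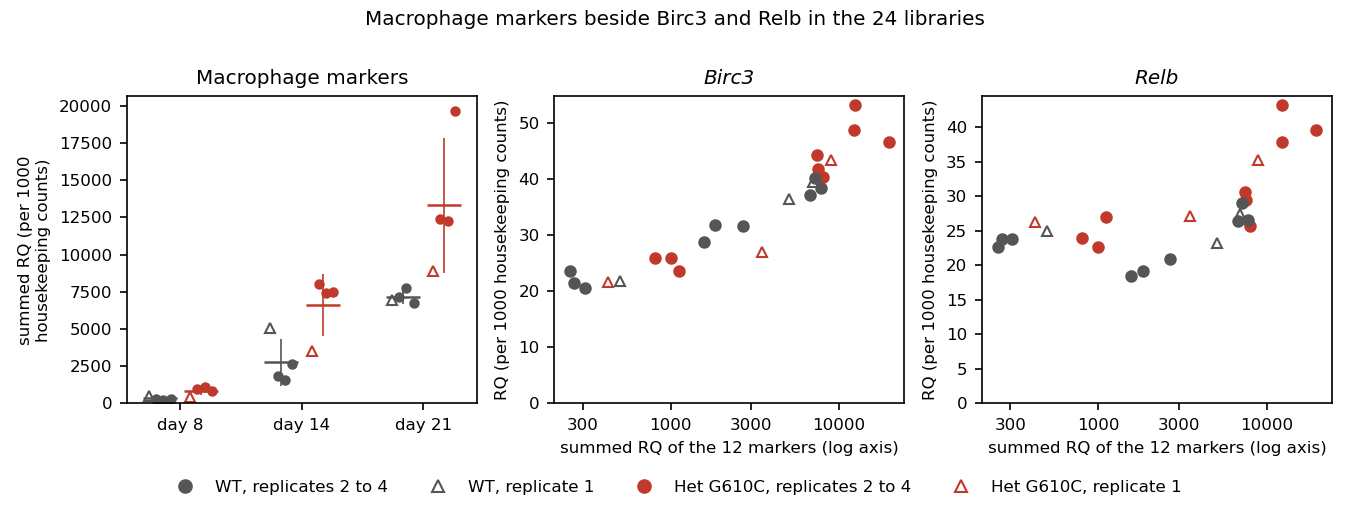
Left, summed RQ of the 12 macrophage markers by day, with filled circles for replicates 2 to 4, triangles for replicate 1, gray for WT and red for Het G610C, and lines for the mean and SD of 4 libraries. Middle and right, RQ of *Birc3* and *Relb* (y axes) against that sum (x axes, log scale) in all 24 libraries. *Birc3* rises from 20.6 to 53.2 along with the sum, and *Relb* lies between 18.4 and 27.0 in the libraries of day 8 and of WT day 14, whose sums run from 252 to 5043.

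Across the 24 libraries, the log2 RQ of *Birc3* correlated with that of the summed macrophage markers at r = 0.955, *Tnfaip3* at 0.898 and *Nfkbia* at 0.851. *Relb* (0.634) and *Nfkb2* (0.573) followed it less closely, and *Ptgs2* (−0.332) and *Vcam1* (−0.232) ran the other way. The libraries share days and genotypes, so these are descriptions over 6 groups. With the macrophage marker level added as a term, an alternative chosen after the data were seen, *Relb* passed at days 14 and 21 (0.39, adjusted p 0.0370), where 0.104% of genes were higher. *Nfkb2* was 0.30 (adjusted p 0.0541), *Nfkbia* 0.22 (adjusted p 0.830) and *Birc3* 0.07 (adjusted p 0.997). With that term, *Vcam1* (−1.65, adjusted p 0.0468) was the 1 member called between day 8 and the later days, where 4.2% of genes were lower. The marker sum gives most weight to *Lyz2*, with a mean of 65620.6 counts beside 7881.6 for *Mrc1*, the next highest. It also differs by genotype and day, so the fit with this term does not sort the members by macrophage origin. The part of macrophages in the differences was not tested.

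Most markers of other blood and vessel cells were low. Of 7 lymphocyte markers 1 was tested and of 7 neutrophil markers 2, with the T cell gene *Cd3e* and the neutrophil genes *S100a9* and *Ly6g* at a mean of 0.0 counts, and the endothelial genes *Tie1*, *Emcn* and *Cldn5* averaged under 1 count per library. The exceptions, named after their values were seen, were *Cd33* of the neutrophil list, a gene that other myeloid cells also express, with a mean of 434.8 counts (0.62 in Het at days 14 and 21, adjusted p 0.116), and *Kdr* of the endothelial list, with 38 counts and higher in Het (1.00, adjusted p 0.0116).

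By the correlation of log2 RQ over the 24 libraries, taken among the 14890 genes whose mean count reached 50, the gene most like *Nfkb2* was *Relb* and the reverse (r = 0.941). The next were *Znfx1* for both, then *Nfkbie* for *Relb* (0.894) and *Tgif1* for *Nfkb2* (0.856). *Nfkbia* and *Tnfaip3* (0.903), *Nfkbia* and *Birc3* (0.891) and *Tnfaip3* and *Birc3* (0.905) were also alike. The genes most like *Birc3* were *H2-D1* (0.979), *H2-M3* and *Creg1*, those most like *Tnfaip3* were *Il7r* (0.944), *H2-K1* and *Cd14*, and those most like *Nfkbia* were *Akna* (0.944), *Cd72* and *Zmynd15*.

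*Nfkb1* was most like *Tbc1d9* (0.953). *Ptgs2* was most like *Cct4* (0.922), *Tes* and *Nup37*, and its correlation with the other members lay between −0.314 (*Birc3*) and 0.398 (*Icam1*). *Icam1* and *Vcam1* were most like their antisense neighbors *Gm47079* (0.959) and *Gm43109* (0.954), and with each other they had an r of −0.075.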

How the data were processed

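Poly(A) RNA of 24 osteoblast cultures was sequenced, and the deposited files hold whole-number read counts per gene, 1 file per library. The authors trimmed reads with cutadapt 2.5, aligned them to mm10 with STAR 2.73a and counted them with featureCounts 1.6.4 of Subread, per the labels. Whether counting used strand or multi-mapped reads is not given in the sources used here, so counts of overlapping genes may be shared. No normalization had been applied.

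Groups were taken from the labels (genotype, day and replicate number). The RQ was computed as the count over the geometric mean of *Actg1*, *Actb*, *Mrfap1* and *Sdha*, and the same mean set the library scale of the tests. Counts were tested with edgeR 4.0.16 (R 4.3.3), quasi-likelihood, after filterByExpr, in 1 fit over all 24 libraries and 6 groups. Replicate 1 and its interactions with later days and genotype were terms in further fits. P-values were adjusted by Benjamini-Hochberg over all genes tested, with a threshold of 0.05. The SE is the log2 fold change divided by the square root of F. Exact permutation tests, two-sided, were run on mean RQ (SciPy 1.17.1). Intervals were not given, and floors of 3 counts cover counting error only.

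All 10 members were named. From each list, up to 3 called genes with the largest absolute log2 fold change and a mean of at least 50 counts were named, or 2 genes with the most counts where none was called, and marker genes. The members and lists were chosen with earlier results of these data known. Lists not otherwise described gave, at days 14 and 21, 1 higher and 1 lower of 7 tested osteoclast markers, 1 higher of 4 endothelial, 2 higher of 6 fibroblast and smooth muscle, and none called of 5 chondrocyte and 3 adipocyte markers. The chondrocyte values had a median of −0.95 and none was above 0. At day 14, their summed RQ was 6278 to 22190 in WT and 1393 to 23140 in Het, with replicate 1 the highest in each. The part of these cells in the genotype differences was not tested.

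Same-numbered libraries deviated together, with a correlation of deviations from group means of 0.246 to 0.751 in 12 pairs, against −0.632 to 0.491 in 36 pairs of different numbers. Within replicates 2 to 4 it was 0.011 to 0.252 in 9 pairs. Replicate 1 had the largest same-numbered correlation at each day, and numbers 2 to 4 were not shown to pair. At day 21, WT replicate 2 correlated at 0.517 with Het replicate 2 and at 0.491 with Het replicate 3. The main fit had no block, and a fit with the replicate block was an alternative. Other alternatives were TMM, DESeq2 size factors and total count as the scale, the scale without each housekeeping gene, no filter or a mean of at least 10 counts, DESeq2 1.42.0, the ratio rule with the permutation test, and each library and replicate left out. Replicates differed by a chi-square of at least 5.14 per degree of freedom, so no library was counted as a copy. The fit was tested on simulated data with 200 changed genes of 20287. At days 14 and 21 it recovered 88% of genes changed 2-fold between genotypes, and 57% in the test of the genotype effect between replicates. Of its calls at days 14 and 21, 6.57% were false. The libraries were drawn independently around 1 mean per gene, without deviations shared by replicate 1. Changes under 2-fold, as the members had between genotypes at days 14 and 21, were not simulated.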

Additional observations from a re-analysis of the deposited data

Results flagged for a closer look

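In 5 of the 54 groups of 4 libraries examined, 1 library of a member stood apart from the other 3 by more than Dixon's 95% limit for the gap over the group's range. Chance gives about 1 such group in 20. In 4 of the 5 the library was replicate 1. *Nfkb1* was highest in replicate 1 of WT at day 8, with an RQ of 132.48 per 1000 housekeeping counts (gap over range 0.935), and in replicate 1 of WT at day 14, with 135.11 (0.905). *Nfkb2* was highest in replicate 1 of WT at day 8, with 74.69 (0.865). *Vcam1* was lowest in replicate 1 of Het at day 21, with 130.08 (0.839). The remaining case was *Nfkb1* in WT at day 21, highest in replicate 3 with 139.39 (0.841).

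The Het effect differed between replicate 1 and replicates 2 to 4 for 3 members in the test of the difference itself (edgeR, adjusted over all genes), by −0.983 on the log2 scale for *Tnfaip3*, −0.537 for *Nfkbia* and −0.431 for *Birc3*. In the same libraries the summed macrophage markers at day 14 were 5043 in WT and 3499 in Het in replicate 1, and 1569 to 2673 in WT and 7400 to 8004 in Het in replicates 2 to 4. At day 8 the sums were 498 in WT and 421 in Het in replicate 1, against 252 to 307 and 802 to 1113 in replicates 2 to 4. At day 21 they were 6970 and 8905 in replicate 1, against 6720 to 7773 and 12290 to 19680. The part of these markers in the difference was not tested.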

How the results depend on the processing

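The call of *Relb* at days 14 and 21 passed under every alternative run, and that of *Nfkb2* under all but the macrophage term (adjusted p 0.0541). Of the other 2 calls, *Nfkbia* and *Birc3* were lost without replicate 2, 3 or 4, with the macrophage term and at day 21 alone, and *Birc3* also at day 14 alone. Their values without 1 of these replicates were 0.368 to 0.444 and 0.215 to 0.256, at day 21 alone 0.379 and 0.309, and for *Birc3* at day 14 alone 0.262, beside 0.47 and 0.29 over all libraries, in contrasts over fewer libraries. The causes of the changes below were not tested. The replicate block changed no other call of a member than those of *Ptgs2* and *Icam1* given above. The macrophage term and the fits of a single day or genotype were chosen after seeing the data. Replicate 1 was shallower than the others, and *Il6* was too low to compare at any depth here. Where members are compared below, an alternative not named left the count within 1.5 times or the sign as it was.

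Het against WT at days 14 and 21 called 3098 genes, and 4990 with the replicate block, 5356 with replicate 1 as a term, 33 with the macrophage term, 709 at day 14 alone and 192 at day 21 alone. Members called were 4, and 7 by the total count, 1 with the macrophage term and 2 at day 21 alone. With that term, *Vcam1* turned to −0.093. Day 8 called 130 genes, and 457 by DESeq2, 317 with the block, 393 with replicate 1 as a term and 0 with the macrophage term. No member was called, and 1 by the permutation rule. With the macrophage term, log2 fold changes at day 8 turned to −0.100 (*Birc3*), −0.022 (*Nfkb2*), −0.110 (*Nfkbia*), −0.051 (*Relb*) and −0.317 (*Vcam1*). *Nfkb1* turned to 0.025, 0.034 and 0.031 and *Ptgs2* to 0.018, 0.024 and 0.018 with TMM, DESeq2 factors and the total count. The difference of the 2 effects called 36 genes, and 89 by DESeq2, 66 with the block, 71 with replicate 1 as a term and 60 with the macrophage term, and 2 members by DESeq2 rather than 0.

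Later days against day 8 called 11877 genes, and 3144 with the macrophage term. Members called were 8, and 5 each with TMM, with DESeq2 factors and by the permutation rule, 4 in WT alone and 1 with the macrophage term. With TMM, DESeq2 factors, the total count, the macrophage term and WT alone, *Icam1* turned to −0.064, −0.065, −0.224, −0.628 and −0.159, and *Nfkb2* to −0.036, −0.036, −0.193, −0.129 and −0.045. By the total count and the macrophage term, *Nfkb1* turned to −0.102 and −0.017 and *Relb* to −0.097 and −0.135. *Relb* in WT alone was −0.009, and *Nfkbia* with the macrophage term −0.230.

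Day 21 against day 14 called 3686 genes, and 2070 with the macrophage term, 1748 in WT alone and 972 in Het alone. Members called were 5, and 3 with *Mrfap1* left out of the scale, 1 with the macrophage term, 1 in WT alone, 2 in Het alone and 2 by the permutation rule. With the macrophage term and in WT alone, *Icam1* turned to −0.101 and −0.051, and *Tnfaip3* with that term to −0.053. *Vcam1* turned to −0.031 with TMM, −0.029 with DESeq2 factors, −0.037 by the total count, −0.022 without *Mrfap1*, −0.013 with the block, −0.014 with replicate 1 as a term, −0.421 with the macrophage term and −0.055 in WT alone.

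Replicate 1 against the others called 3 members, and 5 with TMM, DESeq2 factors, the total count and without *Mrfap1*. With TMM and DESeq2 factors, *Nfkb1* turned to −0.015 and −0.016. With these, the total count and without *Mrfap1*, *Nfkb2* turned to −0.088, −0.089, −0.041 and −0.074, and *Relb* to −0.099, −0.100, −0.053 and −0.083. The difference in the later-day change called 967 genes, and 1718 by DESeq2. It called 0 members, and 1 each with TMM, with DESeq2 factors and without *Actb*, 2 by DESeq2 and 3 with no filter on low counts. The difference in the Het effect called 3 members, and 5 with no filter.

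Leaving out 1 library or 1 replicate number at a time, Het against WT at days 14 and 21 called between 88 and 8228 genes and between 2 and 9 members, day 8 called 0 to 3412 and 0 to 1, and their difference 0 to 929 and 0 to 3. Later days against day 8 gave 9499 to 13761 genes and 6 to 9 members, and day 21 against day 14 gave 1328 to 6137 and 1 to 6. Replicate 1 against the others gave 6380 to 9621 and 1 to 5, its difference in the later-day change 102 to 1456 and 0 to 2, and that in the Het effect 537 to 1789 and 0 to 4. Signs turned at day 8 for *Icam1* (−0.243 to 0.147), *Nfkb1* (−0.131 to 0.019) and *Ptgs2* (−0.458 to 0.460), in the difference for *Tnfaip3* (−0.256 to 0.022) and *Vcam1* (−0.108 to 0.249), from day 8 to the later days for *Icam1* (−0.012 to 0.222), from day 14 to day 21 for *Icam1* (−0.014 to 0.281) and *Vcam1* (−0.137 to 0.089), and in replicate 1 for *Nfkb2* (−0.002 to 0.076) and *Relb* (−0.014 to 0.075).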
